A study of Mus musculus with 20 samples.

Results

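The conjugation enzymes of drug and steroid metabolism were examined in fetal mouse liver as 65 genes of the 45802 in the deposited table, taken by gene name: the UDP-glucuronosyltransferases (Ugt1a, Ugt2a, Ugt2b), the glutathione S-transferases (Gst of the alpha, kappa, mu, omega, pi, theta and zeta classes and the microsomal Mgst genes), the sulfotransferases (Sult1 to Sult5) and the epoxide hydrolases (Ephx). The rule uses names only and no measured value. Of the 65 genes, 34 reached the level needed for testing, a linear value of at least 1 in at least 4 libraries. The other 31 lay under it, and 3 of these (Ugt2a1, Sult2a7 and Sult3a2) had no value in any library.

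Conjugation makes small lipophilic molecules soluble so that they can leave the cell in bile or urine. Glucuronosyltransferases sit in the endoplasmic reticulum and attach glucuronic acid from UDP-glucuronate to bilirubin, phenols, steroids and bile acids. Sulfotransferases work in the cytosol with the sulfate donor PAPS, glutathione transferases join glutathione to electrophiles or reduce peroxides, and epoxide hydrolases open reactive or signalling epoxides with water. In liver these genes are known to respond to nuclear receptors (PXR, CAR, PPARA), to the aryl hydrocarbon receptor AHR and to the stress factor NRF2, and many of them are low before birth.

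The livers of 20 fetuses at stage E17.5, labelled C57BL/6, were sequenced as bulk tissue after the dams had fasted for 24 h, with 4 fetuses (2 females and 2 males) in each of 5 groups. In the Ppara arm, Ppara heterozygous fetuses of heterozygous dams (HetDam_HetFetus) stood beside 2 groups from Ppara knockout dams, one with heterozygous fetuses (KODam_HetFetus) and one with knockout fetuses (KODam_KOFetus), so no group of this arm is wild type for Ppara. In the Cpt2 arm, Cpt2f/f fetuses of Cpt2f/f dams (FloxDam_FloxFetus, called WT in the titles) stood beside Cpt2f/f fetuses of dams that carry Albumin-Cre (Cpt2LKODam_FloxFetus), in which Cre removes Cpt2 from hepatocytes of the dam, and the labels give no Cre for these fetuses. Fetuses that share a number in the sample descriptions are presumed littermates: HetDam_HetFetus and Cpt2LKODam_FloxFetus each hold 4 such numbers, and the other 3 groups hold 3 each, so the p-values measure the spread between fetuses and not between litters alone.

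All values below are the deposited log2 values or differences between them, and a call means an adjusted p under 0.05 from one limma fit over all genes tested. The depth of the libraries is unknown. All 14 hepatocyte markers, Alb and Afp among them, had a value in every library, and their summed linear level ranged from 77330 to 104600 in KODam_KOFetus and from 85540 to 145400 in HetDam_HetFetus, with the other groups overlapping these ranges. In bulk tissue, fewer cells of a type and less RNA per cell cannot be told apart. Libraries HetDam_HetFetus replicate 4 and KODam_KOFetus replicate 2 held 11.27 and 15.37 times the median level of skeletal muscle markers, and Cpt2LKODam_FloxFetus replicate 2 held 13.28 times that of pancreas markers. Ppara itself lay between 2.86 and 3.47 in HetDam_HetFetus, between 1.81 and 3.22 in KODam_HetFetus and between 1.87 and 2.48 in KODam_KOFetus. It was 0.30 lower in knockout than in heterozygous fetuses of knockout dams (limma, adjusted p = 0.682), and since the table does not separate the deleted part from the rest of the transcript, this value does not check the genotype.

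Promoter windows of 2 members are printed because they hold a short motif that a known liver regulator binds, in genes that the results below turn on. Each window covers the 250 bases before the gene's start as RefSeq places it on GRCm38.p6. Gsta3 (chr1:21240335-21240584, plus strand) and Gstm5 (chr3:107895604-107895853, plus strand) each hold the antioxidant response element core TGACNNNGC, which NRF2 is known to bind, in capitals.
Gsta3: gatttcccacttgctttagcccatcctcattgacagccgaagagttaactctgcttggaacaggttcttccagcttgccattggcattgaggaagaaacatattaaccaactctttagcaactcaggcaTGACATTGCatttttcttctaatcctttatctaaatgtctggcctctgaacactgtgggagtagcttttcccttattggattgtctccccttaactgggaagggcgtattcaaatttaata
Gstm5: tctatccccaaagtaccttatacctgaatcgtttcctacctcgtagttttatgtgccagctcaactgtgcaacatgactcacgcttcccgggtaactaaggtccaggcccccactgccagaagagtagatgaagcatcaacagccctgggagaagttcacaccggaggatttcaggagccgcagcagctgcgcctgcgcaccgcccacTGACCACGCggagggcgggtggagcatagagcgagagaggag

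The core begins 121 bases before the start in Gsta3 and 42 in Gstm5. RefSeq gave promoters for 57 members in 70 windows (250 bases before to 50 after each start), searched on both strands. TGACNNNGC was in 4 of the 70 windows (Gsta3, Gstm5, Gstm7 and Mgst1), against 12.4% of all 32851 promoters. The AHR motif GCGTG was in 13 windows (32.4% of all promoters), and the repeat of AGGTCA with 1 base between, a form that PPARA and RXR bind, was in 0 (0.0396% of all). Matches of different motifs overlapped once among the members, in Gstm5. A match is a run of letters and not a measured binding site.

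**Figure D1:**
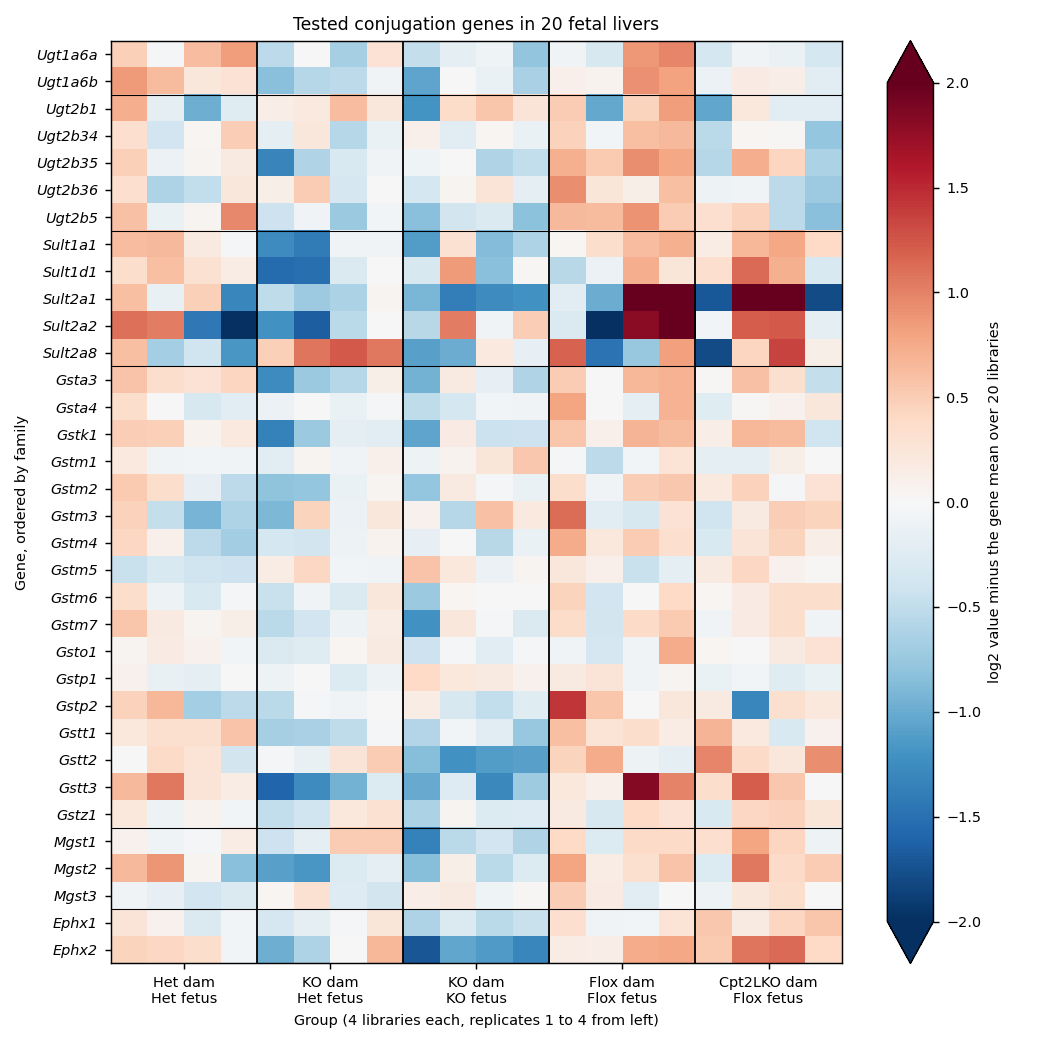
Each row is 1 of the 34 tested genes, ordered by family, each column is 1 of the 20 libraries grouped by dam and fetus, and the colour is the library's log2 value minus the gene's mean over the 20 libraries (scale from -2.0 to 2.0). Blue cells gather in the KODam_HetFetus and KODam_KOFetus columns for Sult1a1, Gstt1, Gstt3 and Gsta3, and in the KODam_KOFetus columns for Gstt2 and Ephx2.

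With a Ppara knockout dam, heterozygous fetuses had lower values of 7 conjugation genes from 3 enzyme families and a higher value of 1, Gstm5. The lower genes were the glutathione transferases Gstt3, Gstt1, Gsta3 and Gstk1, the sulfotransferases Sult1d1 and Sult1a1, and the phenol glucuronosyltransferase Ugt1a6b, with log2 differences from -1.54 to -0.83. These 8 calls are 23.5% of the 34 tested genes, against 39.0% of all 11800 genes tested in this comparison (26.4% higher and 12.6% lower). The share called in either direction was thus below the background, though lower calls outnumbered higher ones among the members and not among all genes. The median log2 difference was -0.21 over the tested members and 0.14 over all genes tested. Between libraries scaled by a trimmed mean, the median of all genes fell to 0.02 and the members called became 0 higher and 13 lower (38.2%). Of all genes, 37.6% were called (2212 higher and 2232 lower). The share of members called in either direction was then near the background, while all of their calls were lower. The count was 5 with litter as a random block, where 31.9% of all genes were called, and 0 without the presumed littermates KODam_HetFetus replicates 1 and 2, where 24.1% were. Without HetDam_HetFetus replicate 4 and the other 2 libraries set apart above, 10 members and 34% of all genes were called.

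Among the glutathione transferases, 5 of 17 tested cytosolic and mitochondrial genes were called (4 lower, 1 higher). That share of 29.4% was below the 39.0% of all genes called in this comparison. Gstt3, a theta-class transferase (GRCm38.p6 chr10:75774117-75781422), read 3.55, 3.95, 3.17 and 3.05 in HetDam_HetFetus and 1.31, 1.64, 1.96 and 2.63 in KODam_HetFetus. No library of the second group reached the lowest of the first, and the difference was -1.54 ± 0.36 (SE, n = 4 and 4; limma, adjusted p = 0.00302). Its neighbour Gstt1 (chr10:75783813-75798584), the theta enzyme known for dehalogenating small solvents, read 7.12, 7.23, 7.24 and 7.48 against 6.24, 6.26, 6.41 and 6.87. These groups also did not overlap, with a difference of -0.83 ± 0.19 (limma, adjusted p = 0.00293).

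Gsta3 (chr1:21240565-21265575), the alpha-class enzyme that in mouse clears the aflatoxin epoxide, read 7.68, 7.46, 7.40 and 7.54 in HetDam_HetFetus. In KODam_HetFetus it read 5.85, 6.36, 6.54 and 7.23, all below the control range, and it was 1.02 lower (SE 0.27; limma, adjusted p = 0.00675). Gstk1 (chr6:42245935-42250441), the kappa-class enzyme of mitochondria and peroxisomes, read 2.90, 2.89, 2.48 and 2.62 against 1.06, 1.67, 2.21 and 2.20, a difference of -0.93 ± 0.28 (limma, adjusted p = 0.0132). The mu-class gene Gstm5 (chr3:107895854-107898685) went the other way, from 5.75, 5.89, 5.79 and 5.78 to 6.34, 6.60, 6.15 and 6.13. All 4 KODam_HetFetus libraries lay above all 4 controls, with a difference of 0.50 ± 0.16 (limma, adjusted p = 0.0167), which missed the threshold after trimmed-mean scaling (0.37, adjusted p = 0.110). Gsta3 and Gstm5, whose promoters above hold the antioxidant core, were called in opposite directions. Gstm7 (-0.44; limma, adjusted p = 0.168) and Mgst1 (0.07; adjusted p = 0.845), which also hold it, were not called. The part of the core in these values was not tested.

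The remaining 12 cytosolic and mitochondrial transferases did not pass, among them Gstm1 (-0.04), Gstp1 (-0.06), Gsta4 (-0.03), which clears lipid aldehydes, Gsto1 (-0.14), a thiol transferase, and Gstz1 (-0.12), an isomerase of tyrosine breakdown. None of the 3 microsomal transferases passed either: Mgst2 was at -0.86 ± 0.34 (limma, adjusted p = 0.0513), Mgst3 at 0.15 and Mgst1 at 0.07. The 2 tested epoxide hydrolases were not called, with Ephx1 at -0.08 and Ephx2 at -0.52 ± 0.28 (limma, adjusted p = 0.144).

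Sulfotransferases were called for 2 of 5 tested genes, both lower. That share of 40% was near the 39.0% of all genes called in either direction, of which 12.6% were lower and 26.4% higher. Sult1d1 (chr5:87554650-87569006), which sulfates catecholamines in mouse, read 3.55, 3.79, 3.50 and 3.34 in HetDam_HetFetus and 1.66, 1.69, 2.91 and 3.18 in KODam_HetFetus. The difference was -1.18 ± 0.39 (limma, adjusted p = 0.0215), and replicates 1 and 2 of the second group carried the lowest values. Sult1a1 (chr7:126672865-126690443), the main phenol sulfotransferase, read 6.11, 6.13, 5.67 and 5.45 against 4.23, 4.09, 5.42 and 5.41, a difference of -1.05 ± 0.31 (limma, adjusted p = 0.0132). Here too the first 2 libraries lay far below the others, which lay just under the lowest control. The steroid and bile acid sulfotransferases Sult2a1, Sult2a2 and Sult2a8 stayed near the minimum level, with Sult2a8 at 1.36 ± 0.61 (limma, adjusted p = 0.0830).

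Of the glucuronosyltransferases, 1 of 2 tested Ugt1a genes and 0 of 5 tested Ugt2 genes were called, where 39.0% of all genes were. Ugt1a6b (chr1:88103257-88218998), which conjugates small phenols, read 4.83, 4.61, 4.21 and 4.27 in HetDam_HetFetus and 3.14, 3.41, 3.46 and 3.90 in KODam_HetFetus. The groups did not overlap, and the difference was -1.003 ± 0.238 (limma, adjusted p = 0.00335). Ugt1a6a was at -0.70 ± 0.28 (limma, adjusted p = 0.0506), just over the threshold, as were Ugt2b5 at -0.69 ± 0.27 (adjusted p = 0.0501) and Ugt2b35 at -0.72 ± 0.28 (adjusted p = 0.0515). The Ugt1a genes share their last exons, so 74.8% of the 75-base windows of Ugt1a6b and 51.2% of those of Ugt1a6a also occur in another gene, and how reads were split between them is uncertain. Such sharing was 30.4% for Ugt2b5 (with Ugt2b38) and 11.5% for Gstt3 (with Gm20441), and 0 for Gsta3, Gstt1, Gstk1, Gstm5 and Sult1d1.

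**Figure D2:**
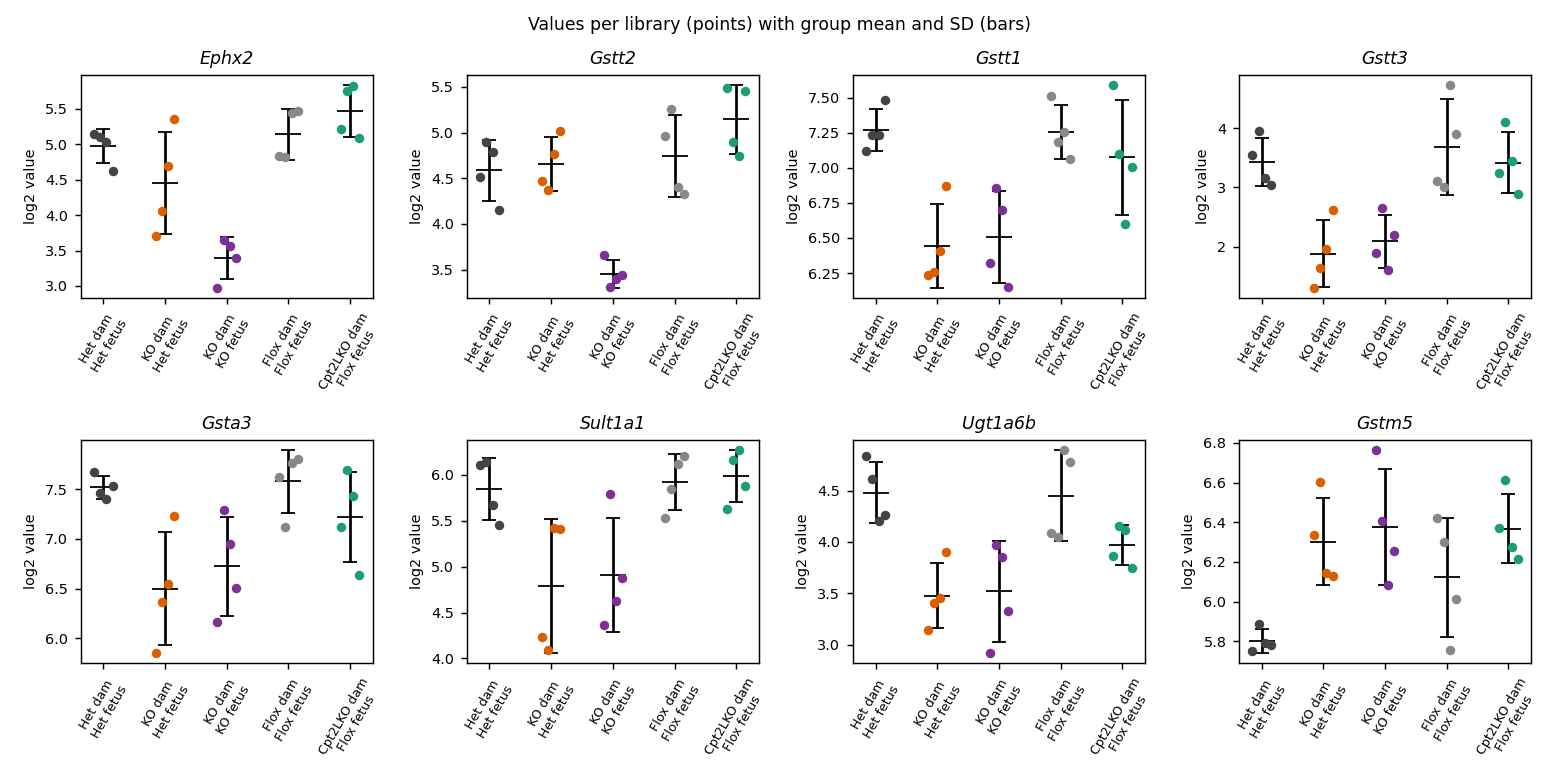
Each panel shows 1 gene, with the log2 value on the vertical axis, the 4 libraries of each of the 5 groups as points, and the group mean with SD as bars. Gstt2 and Ephx2 are lowest in all 4 KODam_KOFetus libraries, Gstt1 and Gstt3 are lower in both groups with knockout dams than in HetDam_HetFetus, and Gstm5 is higher in both.

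KODam_HetFetus replicates 1 and 2 share a number in the descriptions and are presumed littermates. In 27 of the 34 tested genes their mean lay below that of replicates 3 and 4, and this held for all 7 genes called lower. With both left out, 0 of the 34 members were called and 4 had an unadjusted limma p under 0.05. All 7 genes remained lower than HetDam_HetFetus in sign: Gstt3 at -1.13 (limma, adjusted p = 0.0634), Ugt1a6b at -0.80 (0.0555), Gstt1 at -0.63 (0.0589), Gsta3 at -0.63 (0.131), Gstk1 at -0.51 (0.218), Sult1d1 at -0.50 (0.388) and Sult1a1 at -0.43 (0.323). The estimates of Sult1d1 and Sult1a1 moved most, and the median over all tested members moved from -0.21 to -0.06. Leaving out replicate 1 alone or replicate 2 alone left 5 calls each, and leaving out replicate 4 gave 13. Shares of all genes were not set beside these counts, so whether members moved more than other genes cannot be told. With litter as a random block 5 remained, namely Gstt3, Gstt1, Gsta3, Ugt1a6b and Gstm5.

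**Figure D3:**
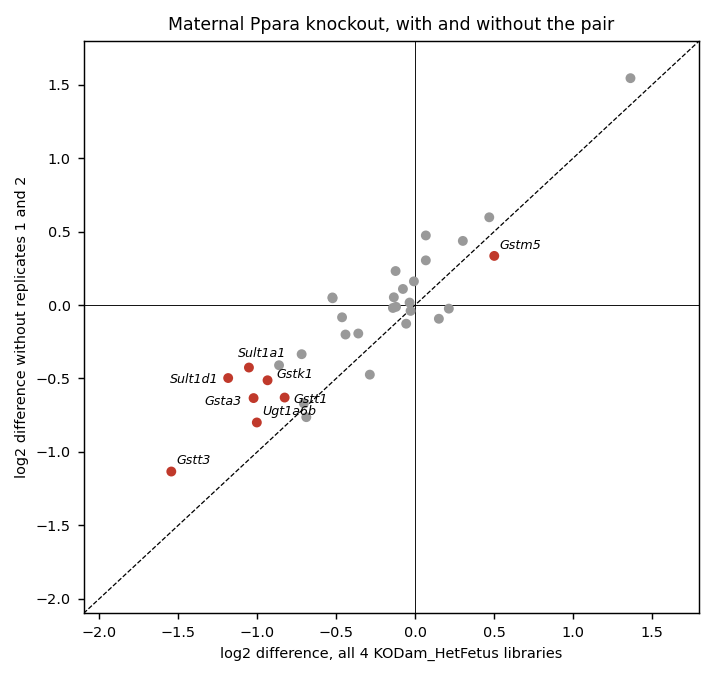
Each point is 1 of the 34 tested genes, with its log2 difference between KODam_HetFetus and HetDam_HetFetus from all 4 KODam_HetFetus libraries on the horizontal axis and without replicates 1 and 2 on the vertical axis, the dashed line marks equality, and red marks the 8 genes called with all libraries. The 7 lower genes lie above the line and below 0 on the vertical axis, so each difference was smaller without the pair but kept its sign.

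Markers of myeloid cells moved in the same comparison, and those of other cells are given beside them. The summed linear level of 11 myeloid markers, all of which had a value, was 5410 to 8222 in HetDam_HetFetus and 3173 to 5316 in KODam_HetFetus, with no overlap. Of these 11, 8 were called lower, where 12.6% of all genes were. The summed level of 11 erythroid markers was 97760 to 110000 against 109600 to 117800, which overlap, with 1 called, beside 39.0% of all genes. That of the hepatocyte markers also overlapped (78570 to 108900 in KODam_HetFetus), with 2 of 14 called lower and 1 higher. That of 10 macrophage markers was 506 to 613 against 483 to 582, which overlap, with 3 called lower and 1 higher. That of 9 adrenal markers was 68.7 to 103 against 5.84 to 37.0, nearly all of it from Hsd3b1 (median 98.1 against 17.2), with Dbh at 0 in all 4 KODam_HetFetus libraries and Nr5a1 and Th at 0 in 3 of them. That of 7 lung markers was 0.915 to 1.99 against 4.22 to 6.23, nearly all of it from Ager (median 1.33 against 5.24), the only lung marker tested and called higher by 2.07 on the log2 scale, with Scgb1a1 at 0 in all 4 KODam_HetFetus libraries. The part of these shifts in the conjugation gene results was not tested.

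Heterozygous and knockout fetuses of knockout dams shared no number in the sample descriptions, so fetal genotype and presumed litter cannot be told apart. When the fetus itself lacked Ppara, among knockout dams, Gstt2 was the only conjugation gene called. This theta-class transferase (chr10:75831842-75837419) read 4.47, 4.37, 4.77 and 5.02 in KODam_HetFetus and 3.66, 3.31, 3.40 and 3.44 in KODam_KOFetus. All 4 knockout fetuses lay below every heterozygous one, and the difference was -1.20 ± 0.22 (SE, n = 4 and 4; limma, adjusted p = 0.00536). That is 1 of 34 tested genes, against a background of 0.822% of 11805 genes tested (0.796% lower and 0.0254% higher). Gstt2 was called under all 20 alternatives tried, with differences from -1.44 to -0.97. Gut markers moved in the same comparison: the summed linear level of 11 of them was 24.0 to 32.8 in KODam_HetFetus and 8.51 to 13.6 in KODam_KOFetus, without overlap, and 1 of the 3 tested was called lower. Most of it came from Lgals4 (median 14.7 against 2.24), Anpep (8.26 against 5.15) and Fabp2 (4.73 against 2.46), and Cdx2 was at 0 in all 8 libraries. Their part in the Gstt2 result was not tested.

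Ephx2 (chr14:66084372-66124522), the soluble epoxide hydrolase that inactivates epoxy fatty acids and is known in rodent liver as induced by PPARA agonists, came next. It read 3.71, 4.06, 4.70 and 5.35 in KODam_HetFetus and 2.98, 3.65, 3.56 and 3.39 in KODam_KOFetus, without overlap, and the difference of -1.06 ± 0.28 missed the threshold (limma, adjusted p = 0.115). The spread was wide in the heterozygous fetuses, where replicates 1 and 2 lay nearest to the knockouts. Without that pair the difference was -1.63 and passed (limma, adjusted p = 0.00245), and without replicate 1 alone it was -1.31 (adjusted p = 0.0188). Mgst1, the microsomal transferase that also reduces lipid peroxides, read 6.68, 6.91, 7.60 and 7.61 against 5.74, 6.57, 6.73 and 6.50. At -0.82 ± 0.24 it was not called (limma, adjusted p = 0.185), but without the pair it was at -1.22 (adjusted p = 0.0218).

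Another 3 members had an unadjusted limma p under 0.05 and were not called, where 10.9% of all genes had such a p. Gstp1, the pi-class transferase, was at 0.33 ± 0.10 (limma, adjusted p = 0.185), from 7.82, 7.92, 7.64 and 7.82 to 8.31, 8.12, 8.09 and 8.004, with every knockout fetus above every heterozygous one. The xenobiotic epoxide hydrolase Ephx1 was at -0.40 ± 0.15 (adjusted p = 0.364) and Sult2a8 at -1.47 ± 0.61 (adjusted p = 0.411). Gstp1 shares 29.2% of its windows with another gene, mainly Gstp2. The genes called lower with the knockout dam were not called here, with Gstt1 at 0.06, Gstt3 at 0.20, Gsta3 at 0.23, Ugt1a6b at 0.04, Sult1a1 at 0.12, Gstk1 at 0.20 and Sult1d1 at 0.76 ± 0.39 (limma, adjusted p = 0.480). Both comparisons use KODam_HetFetus, as the treated group in the first and the reference in the second, so their values are not independent.

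The 4 theta-class genes lie side by side on chromosome 10, from Gstt3 at 75774117 through Gstt1 and Gstt4 to the end of Gstt2 at 75837419. Gstt1 and Gstt3 were called with the knockout dam and not with the knockout fetus, and both dam calls missed the threshold without the presumed littermates, as given above. Gstt2 was called with the knockout fetus and not with the dam (0.07 ± 0.22; limma, adjusted p = 0.832), and Gstt4 was under the minimum. Whether the genes differ from each other in these responses was not tested.

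**Figure D4:**
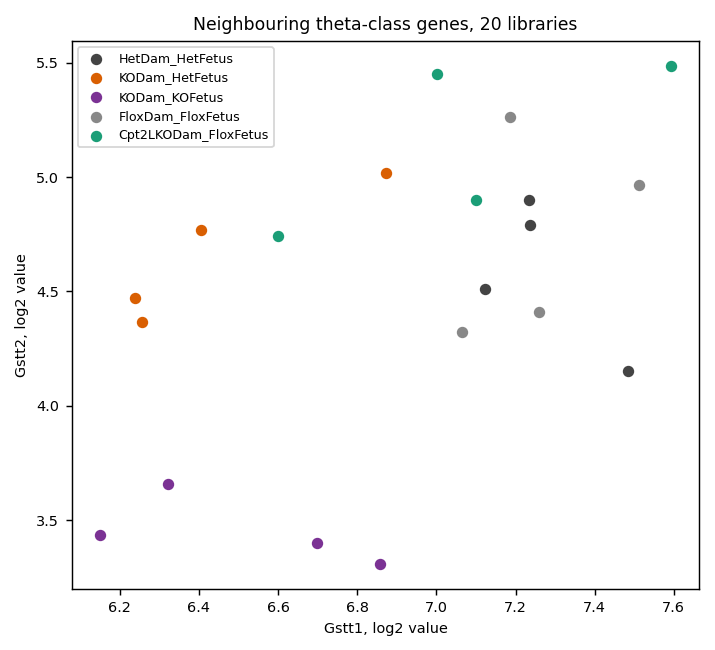
Each point is 1 of the 20 libraries, with the log2 value of Gstt1 on the horizontal axis, that of Gstt2 on the vertical axis and the group as colour. The 4 KODam_KOFetus libraries lie below 3.7 for Gstt2, under every other library, and both groups with knockout dams lie to the left of HetDam_HetFetus for Gstt1.

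With dam and fetus both lacking Ppara, 13 of 34 tested members were called against HetDam_HetFetus, 11 lower and 2 higher (38.2%), where 24.7% of all 11801 genes were called (17.4% higher and 7.31% lower). The members' median was -0.36, beside 0.14 over all genes tested. This comparison shares HetDam_HetFetus with the first and KODam_KOFetus with the second, and its values are given beside theirs. After trimmed-mean scaling the median of all genes was 0.02 and the calls were 0 higher and 13 lower, beside 21.5% of all genes (1152 higher and 1385 lower). With litter as a random block 8 members (23.5%) and 19.7% of all genes were called, and without the libraries set apart above 12 members and 20.4% of all genes were.

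Markers of other cells were examined here as well, where 17.4% of all genes were called higher and 7.31% lower. The summed linear level of 11 myeloid markers was 5410 to 8222 in HetDam_HetFetus and 3804 to 6545 in KODam_KOFetus, with 5 of 11 called lower. That of 11 erythroid markers was 97760 to 110000 against 109800 to 117900, with 2 called higher (18.2%), near the share of all genes. Both of these sums overlapped between the groups. Gut markers summed to 21.2 to 124 against 8.51 to 13.6, with 2 of 3 tested called lower and Cdx2 and Guca2a at 0 in all 4 KODam_KOFetus libraries. Adrenal markers summed to 68.7 to 103 against 14.1 to 72.4, and the 1 tested was called lower, at -1.80 on the log2 scale. Lung markers summed to 0.915 to 1.99 against 1.43 to 5.33, and the 1 tested was called higher, with Sftpc and Nkx2-1 at 0 in all 4 KODam_KOFetus libraries. Their part in the results on conjugation genes was not tested.

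Of 4 epoxide hydrolase genes, the 2 tested were both lower in this comparison, and Ephx3 and Ephx4 were under the minimum. Ephx4 read -4.38, -4.29, -3.12 and -4.23 in KODam_KOFetus. It read -5.25, -5.20 and -5.25 in the HetDam_HetFetus libraries with a value. Ephx2 read 5.14, 5.11, 5.04 and 4.63 in HetDam_HetFetus and, as given above, 2.98 to 3.65 in KODam_KOFetus. The gap between the groups was wide, and the difference was -1.58 ± 0.28 (limma, adjusted p = 0.00103), past the threshold in all 20 alternatives. Ephx1 read 3.48, 3.30, 2.93 and 3.16 against 2.60, 2.93, 2.67 and 2.78, a difference of -0.47 ± 0.15 (limma, adjusted p = 0.0253). The second difference was smaller and its call was lost in 6 of 20 alternatives (adjusted p up to 0.0775).

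The 3 tested theta-class transferases were all lower: Gstt3 at -1.34 ± 0.36 (limma, adjusted p = 0.0127), Gstt2 at -1.14 ± 0.22 (0.00196) and Gstt1 at -0.76 ± 0.19 (0.00886), each called in all 20 alternatives. Gstt1 read 6.32, 6.86, 6.70 and 6.15 in KODam_KOFetus and Gstt3 read 1.90, 2.65, 1.61 and 2.19, within or overlapping the ranges of heterozygous fetuses of knockout dams. Gsta3 was at -0.80 ± 0.27 (limma, adjusted p = 0.0393) and Mgst1 at -0.75 ± 0.24 (0.0286). Gstk1 was not called at -0.74 ± 0.28 (0.0597). Gstm5 was higher by 0.57 ± 0.16 (limma, adjusted p = 0.0131) and Gstp1 by 0.28 ± 0.10 (0.0444). The call of Gstp1 was held in 6 of 20 alternatives only, while that of Gstm5 was lost only after trimmed-mean scaling (adjusted p = 0.0763).

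Among the glucuronosyltransferases, Ugt1a6b was at -0.96 ± 0.24 (limma, adjusted p = 0.00800), Ugt1a6a at -0.86 ± 0.28 (0.0301) and Ugt2b5, a steroid-conjugating enzyme, at -0.95 ± 0.27 (0.0167). Ugt2b5 read 3.70, 3.00, 3.19 and 4.09 in HetDam_HetFetus and 2.29, 2.75, 2.84 and 2.31 in KODam_KOFetus, without overlap. Of the sulfotransferases, Sult1a1 was at -0.93 ± 0.31 (limma, adjusted p = 0.0374) and Sult1d1, at -0.42 ± 0.39, was not called (0.436). Single libraries decided several of these calls. Without KODam_KOFetus replicate 1, 7 members remained called and Mgst1, Ephx1, Ugt1a6a, Gsta3, Sult1a1 and Gstp1 dropped out, and without replicate 4 the count was also 7, with Ugt2b5 lost in place of Gstp1. Without HetDam_HetFetus replicate 1 or replicate 3 it was 8. Shares of all genes were not set beside these counts either. The adjusted p over all 20 alternatives reached 0.104 for Mgst1, 0.0974 for Ugt1a6a, 0.128 for Gsta3, 0.116 for Sult1a1, 0.0621 for Ugt2b5 and 0.333 for Gstp1.

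**Figure D5:**
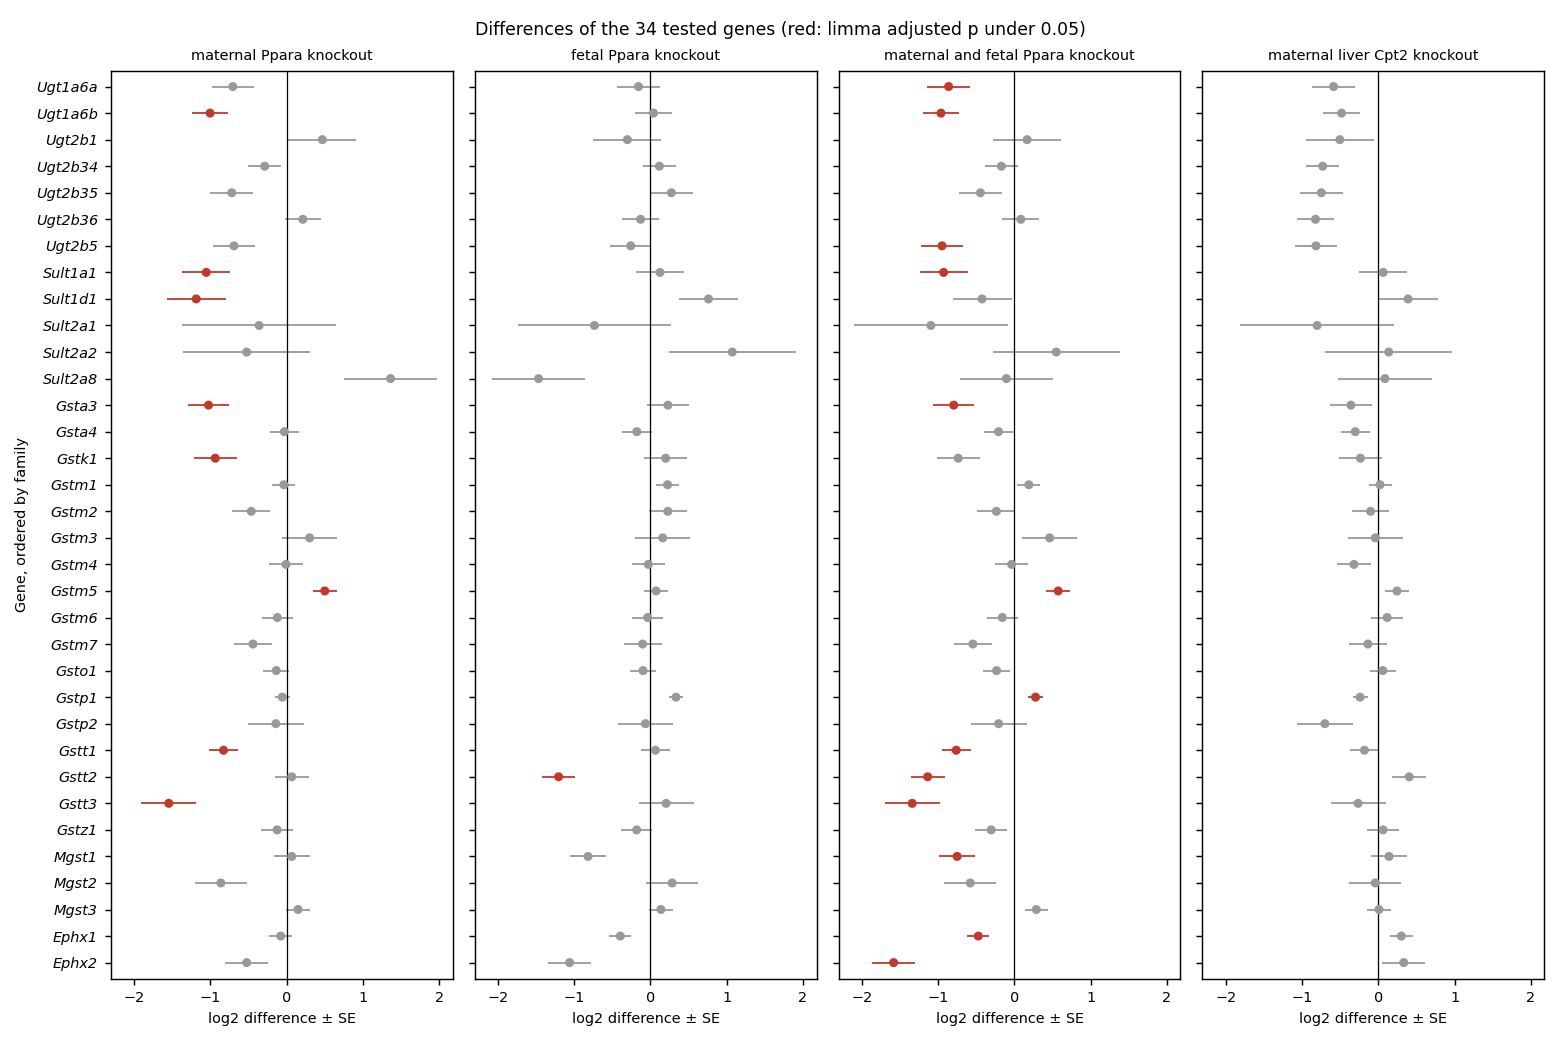
Each panel is 1 comparison, each row 1 of the 34 tested genes, the point its log2 difference and the bar its SE, and red marks a limma adjusted p under 0.05. There are 8 red points for the maternal Ppara knockout, 1 for the fetal knockout, 13 for both together and 0 for the maternal liver Cpt2 knockout.

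Maternal loss of liver Cpt2 gave no called member, and limma called 0 of 11805 genes tested in that comparison (0%). Of the 34 tested members, 6 had an unadjusted p under 0.05, as did 11.1% of all genes tested. Values are given for the tested Ugt2b genes, which conjugate steroids and bile acids and lie together on chromosome 5, and for the other members with such a p. Ugt2b36 (chr5:87065927-87092555) read 3.86, 3.17, 3.03 and 3.52 in FloxDam_FloxFetus and 2.83, 2.86, 2.40 and 2.20 in Cpt2LKODam_FloxFetus. The groups did not overlap, and the difference was -0.82 ± 0.24 (limma, adjusted p = 0.346). Ugt2b5 read 3.78, 3.76, 4.03 and 3.64 against 3.46, 3.58, 2.60 and 2.29, also without overlap, at -0.82 ± 0.27 (adjusted p = 0.367). Ugt2b34 was at -0.73 ± 0.22 (0.346), Ugt2b35 at -0.75 ± 0.28 (0.377) and Ugt2b1, near the minimum level, at -0.50 ± 0.45 (0.700). The other members with an unadjusted p under 0.05 were Ugt1a6a at -0.59 ± 0.28 (0.447) and Gstp1 at -0.24 ± 0.10 (0.395). Gstt2 was at 0.41 ± 0.22 and Ephx2 at 0.33 ± 0.28, neither called.

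The maternal Ppara effect minus the maternal Cpt2 effect was tested as an interaction. It gave 0 called members and 0% of 11798 genes, so no difference between the 2 maternal defects was shown for any member, and 6 members and 19.9% of all genes had an unadjusted limma p under 0.05. Ugt2b36 stood at 1.04 ± 0.34 (limma, adjusted p = 0.142), since it was at 0.21 with the Ppara knockout dam and -0.82 with the Cpt2 knockout dam. Sult1d1 was at -1.57 ± 0.55 (adjusted p = 0.152), Gstt3 at -1.28 ± 0.51 (0.187), Sult1a1 at -1.12 ± 0.44 (0.186), Ephx2 at -0.86 ± 0.39 (0.237) and Gstt1 at -0.64 ± 0.27 (0.205). Between males and females, 0 members and 0.0508% of all genes were called. Gsta4 at -0.30 ± 0.10 and Sult2a8 at -0.86 ± 0.34, lower in males, were the 2 members with an unadjusted p under 0.05, as had 5.19% of all genes (limma, adjusted p = 0.855 for both).

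Most of the untested members belong to the sulfotransferases (14 of 19), the Ugt1a genes (6 of 8) and the Ugt2 genes (5 of 10). Ugt1a1, the enzyme that conjugates bilirubin, had a value in all 20 libraries and reached a linear value of 1 in 1 of them. It read -0.31, -1.32, -0.71 and -0.13 in HetDam_HetFetus and -3.64, -3.89, -2.89 and -3.16 in KODam_HetFetus. The groups were far apart, and in the fit without a level filter the difference was -2.78 ± 0.83 (limma, adjusted p = 0.0193). It read -2.67, -1.40, -3.19 and -1.77 in KODam_KOFetus (-1.64 against HetDam_HetFetus, adjusted p = 0.201), and from -3.85 to 1.53 in FloxDam_FloxFetus. At this level values are below 1 on the linear scale, and 57.7% of its windows also occur in another gene.

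Gsta2, an alpha-class transferase, lay under the minimum with a value in 19 libraries. It read -3.77, -2.63 and -3.06 in the 3 KODam_KOFetus fetuses with a value, against -0.07, -0.86, -1.999 and -1.99 in HetDam_HetFetus (-1.93 ± 0.60 without a filter; limma, adjusted p = 0.0402). The KODam_KOFetus library without a value did not enter that difference. Of the Gsta2 windows, 36.6% also occur in another gene, mainly Gsta1. Gsta1, Sult1b1, Sult2a5 and Ugt1a7c reached a linear value of 1 in 2, 1, 1 and 2 libraries, and the rest of the untested genes did so in 0 libraries. Sult1e1, the estrogen sulfotransferase, had a value in 6 libraries and Sult3a1 in 1.

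Genes that feed or control conjugation were examined as 6 lists. In KODam_HetFetus against HetDam_HetFetus, where 39.0% of all genes were called, the count was 4 of 13 regulators, a share below that background. Ahr, the receptor for dioxin-like compounds, was higher by 1.54 ± 0.32 (limma, adjusted p = 0.00142), with all KODam_HetFetus libraries (2.58 to 3.23) above all controls (0.67 to 2.13). Nfe2l2, which encodes NRF2, was at -1.33 ± 0.23 (adjusted p = 3.92e-04), with libraries between 4.10 and 4.30 in the controls and between 2.69 and 3.03 with the knockout dam. Cebpa, a hepatocyte transcription factor, was at -1.88 ± 0.29 (adjusted p = 2.06e-04) and Nr1h4, the bile acid receptor FXR, at -1.41 ± 0.41 (0.0121). The calls of Ahr, Nfe2l2 and Cebpa were held in all 20 alternatives, while that of Nr1h4 was lost without the presumed littermates (adjusted p = 0.291). The xenobiotic receptors Nr1i2 (-0.20) and Nr1i3 (-0.03) and the factor Hnf4a (-0.47) were not called.

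In the same comparison, 26.4% of all genes were called higher and 12.6% lower. Of 5 genes listed under glucuronate handling, 2 were lower and 2 higher. Gusb, the beta-glucuronidase that takes glucuronate off conjugates, was not called (-0.18). Whether the listed Slc35b1 carries UDP-glucuronate was not tested. Ugp2, which makes UDP-glucose, was at -1.49 ± 0.28 (limma, adjusted p = 7.78e-04) and Ugdh, which oxidizes it to UDP-glucuronate, at -0.68 ± 0.22 (0.0206), while the transporter genes Slc35b1 (0.72) and Slc35d1 (0.57) were higher. The calls of Ugp2 and Slc35b1 were held in all 20 alternatives, while Ugdh was called in 14 (adjusted p up to 0.163) and Slc35d1 in 9 (up to 0.108). Of 12 tested glutathione genes, 3 were higher, including the catalytic subunit of the first enzyme of synthesis, Gclc, at 0.99 ± 0.20 (limma, adjusted p = 0.00131) and the second enzyme, Gss, at 0.64 ± 0.11 (5.25e-04). The modifier subunit Gclm was at -0.14 and not called. Another 5 were lower, among them Ggt1, which breaks down glutathione outside the cell, at -1.80 ± 0.27 (adjusted p = 1.92e-04) and Chac2, which cleaves it in the cytosol, at -2.28 ± 0.44 (8.87e-04). Of 6 sulfate genes, Slc35b3 was higher (0.57) and Slc35b2 (-0.45) and Slc26a1 (-0.88) lower, with the PAPS synthases Papss1 (-0.02) and Papss2 (-0.18) not called. The call of Slc35b2 was held in 16 of 20 alternatives and that of Slc26a1 in 13, and without the presumed littermates they were at -0.19 (adjusted p = 0.384) and -0.29 (0.485).

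Other conjugating enzymes were called for 8 of 8 tested genes, 7 of them lower, where 39.0% of all genes were called (12.6% lower). This list was chosen with earlier results of these data known. Tpmt, the thiopurine methyltransferase, was at -1.14 ± 0.30 (limma, adjusted p = 0.00643) and Acsm3, an acyl-CoA synthetase, at -1.76 ± 0.48 (0.00779), while the acetyltransferase Nat2 was at 1.14 ± 0.27 (0.00355). Without the presumed littermates, 2 of these 8 stayed called, 1 in each direction, a share near that of all genes in that fit, as given above. Of 7 tested export pumps, the bile salt pump Abcb11 was lower (-1.46) and Abcg2 (0.47) and Abcc5 (0.62) higher, and 0 were called without that pair. With dam and fetus both knockout, where 24.7% of all genes were called (17.4% higher and 7.31% lower), the calls were 5 lower and 1 higher of 13 regulators, 2 and 3 of 12 glutathione genes, 5 and 1 of 8 other conjugating enzymes, 2 and 1 of 7 pumps, 1 and 1 of 5 glucuronate genes and 0 of 6 sulfate genes. Ahr was again higher (1.58 ± 0.32; limma, adjusted p = 0.00248), while Nfe2l2, at -0.68 ± 0.23 (0.0353), was called in 12 of 20 alternatives. In the fetal Ppara comparison, the Cpt2 comparison and between the sexes, 0 genes of these 6 lists were called.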

How the data were processed

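Stranded poly(A) RNA libraries of 20 fetal livers were read as single reads of 75 bases, per the labels' protocols. The tools listed in the submitters' processing notes are Partek 7.0 and bcl2fastq 2.17.1.14, with build GRCm38.p6. The authors deposited quantile-normalized log2 values per gene (quantiles differ by at most 4.8e-05 between libraries). Aligner, counting rule and the quantity before the logarithm are named in none of the sources used, so depth is unknown, no count test was run, and levels are not ranked between genes. Between 23334 and 26255 genes had a value per library, and library pairs correlated at 0.907 to 0.986.

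From these values, genes with a linear value of at least 1 in at least 4 libraries (11807) were fitted with limma 3.58.1 in R 4.3.3 (a mean per group, trended eBayes, two-sided, Benjamini-Hochberg over all genes tested). Promoters and positions came from RefSeq on GRCm38.p6 and matched all 65 members by symbol where listed, and windows of 75 bases shared between transcripts came from the GENCODE annotation. The members and lists were chosen with earlier results of these data known. Full statistics were given to called members, a panel of family representatives and up to 4 called genes per list with the smallest p. Alternatives changed the pseudocount, level filter, scaling, samples, litter or replicate block, sex term, or left out libraries. Some named genes and a motif searched are not reported here.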

Additional observations from a re-analysis of the deposited data

Results flagged for a closer look

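One value stood apart from its group. Mgst1, the microsomal glutathione transferase, read 6.832 in FloxDam_FloxFetus replicate 2, where the nearest of the other 3 libraries read 7.478, a gap of 0.9594 of the group's whole range. This was 1 of 75 groups of 4 examined over 15 members, and chance flags about 1 in 20 groups.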

How the results depend on the processing

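Members called with the maternal Ppara knockout (8) became 13 after trimmed-mean scaling, 5 with litter as a random block (consensus correlation 0.566) and 0 without both presumed littermates, and leaving out single libraries gave 5 to 13. For the fetal Ppara knockout (1) the count was 2 after trimmed-mean scaling, 3 without the littermates and 1 to 2 with single libraries left out. For both together (13) it was 8 with the litter block and 7 to 14 with single libraries left out. Scaling by trimmed means moved the median of all genes by over 0.1 in the maternal comparison (0.144 to 0.0168). The same held for both together (0.137 to 0.02) and for the difference of maternal effects (0.149 to 0.00942). With quantiles of the genes tested, these medians were 0.0516, 0.0632 and 0.0416. Counts for the Cpt2 knockout, the difference and sex were 0 in every alternative run, and no result reversed. Why these counts moved, and whether they moved more than the counts of all genes, was not tested. The depth is unknown, so what it limits cannot be stated, and values below 1 on the linear scale, as for Ugt1a1, are the least certain.

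With the replicate number as a block, 8 members were called for the maternal knockout, 1 for the fetal knockout and 13 for both together. Of 40 pairs of libraries with the same number, deviations from the group means correlated at -0.378 to 0.482 and 16 exceeded 0.1. Pairs with different numbers were not set beside them, so whether the numbers pair the samples cannot be told.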
